A study of Mus musculus with 20 samples.

Results

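Levels of 10 activity-induced immediate early genes were measured in mouse hippocampus and neocortex with and without the microRNA miR-324. The genes are *Egr1*, *Egr2*, *Egr3* and *Egr4*, *Fos*, *Fosb* and *Junb*, *Nr4a1*, *Npas4* and *Arc*. They are 10 of the 35580 genes that could be summed from the deposited transcripts, and all 10 passed the filter on low counts in every comparison. The set was drawn up with results of these data in view, in particular the low *Egr1* of the miR-324-null neocortex. For that reason the comparison of genotypes in the neocortex is given below as a description, with no p-value, and nothing is read from its calls.

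Immediate early genes are switched on in neurons within minutes of synaptic activity, without the need for new protein. Calcium entry and MAP kinase signalling act on factors that already sit at their promoters, among them CREB, SRF with its partners, and MEF2. Most of the products are transcription factors that carry the response on to later genes, and *Arc* acts directly at the synapse. Their transcripts are short-lived, so their level in the brain is widely read as a trace of recent activity.

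RNA-seq was performed on 20 samples from male C57BL/6J mice aged 13.5 months, with 5 wild-type (WT) samples and 5 from miR-324-null mice for both the hippocampus and the neocortex. In the null mice *Mir324*, which gives rise to miR-324-5p and miR-324-3p, was deleted from the whole body with CRISPR/Cas9. The founders were of mixed C57BL/6 and CBA/ca background, their offspring were backcrossed, and WT and null mice were then kept as separate lines, so differences between the lines and the deletion cannot be told apart. Levels of *Mir324* itself were not analysed here. Whole pieces of tissue were sequenced, so fewer cells of a type and less RNA per cell cannot be told apart, and the labels do not say which mouse each sample came from, so p-values measure the spread between these samples.

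Each sample held between 12752439 and 19617765 estimated counts. Unless another scale is named, levels are CPM, counts relative to the scaled library size, and TPM, used to compare genes, is also relative to transcript length. P-values are those of edgeR (quasi-likelihood F-test), adjusted by the Benjamini-Hochberg method across the genes tested. Log2 fold changes are given with a standard error (SE) derived from that test. It is the absolute log2 fold change divided by the square root of the F statistic. A gene was called at an adjusted p of at most 0.05. Replicates of every group differed by more than sampling noise.

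The tissue labels were checked against marker genes, and hippocampus and neocortex samples separated on both lists. The summed level of 6 markers of the hippocampal fields, such as *Prox1*, was 487 to 686 CPM in hippocampus samples and 73.6 to 156 CPM in neocortex samples. For 7 neocortical markers it was 155 to 257 CPM in hippocampus and 518 to 833 CPM in neocortex. Choroid plexus markers, such as *Ttr*, stood high in 3 samples, with a summed level of 4516 CPM in WT hippocampus 3, 3881 CPM in null hippocampus 5 and 801 CPM in null neocortex 2. No other sample was above 138 CPM. Counts of called genes are given without these 3 samples where that mattered, an alternative added after the data were seen.

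The sequences at stake are the miRNA that was removed and the start regions of the genes. Mature miR-324 sequences are from RefSeq (GRCm38.p6, chr11:70012060-70012082 and chr11:70012095-70012114, + strand), with the seed, bases 2 to 8, in capitals. The 3′UTR sites in GENCODE transcripts of GRCm38 that match a seed are given below them, with the matching bases in capitals, because a site of this kind is where the miRNA could act directly.
miR-324-5p: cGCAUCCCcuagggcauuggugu
miR-324-3p: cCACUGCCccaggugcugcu
Arc, chr15:74671075-74671104, - strand, miR-324-5p site: tgactcccaaaGGGATGCcctgtccagcca
Arc, chr15:74670714-74670743, - strand, miR-324-5p site: ctcaacttccgGGGATGCagcccactcctg
Egr2, chr10:67541831-67541860, + strand, miR-324-3p site: tgtgtgatgtgGGCAGTGttaacagggtct
The search took 1 protein-coding transcript per gene, the one with the highest mean count. Of the 10 genes, 1 (*Arc*, with 2 sites) held a match to the miR-324-5p seed, and 7.36% of 18746 genes searched did so. *Egr2* was the 1 gene of the 10 with a match to the miR-324-3p seed, against 12.9% of all genes. A match is a run of letters and was not tested for activity.

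Start regions of 7 of the 10 genes were in the RefSeq promoter table (GRCm38.p6, 250 bases before to 50 after each start). They were searched for TGACG on either strand, which is the core of the cyclic AMP response element that CREB binds, and for the CArG box that SRF binds. All 7 held TGACG, against 20.8% of 32851 promoters, and *Nr4a1* held it 4 times. The full palindrome TGACGTCA was in none of the 7 and in 1.79% of all promoters. *Egr2* held a CArG box, as did 1.63% of all promoters. For *Npas4* the RefSeq start lies 345 bases from that of the GENCODE transcript. A window of each gene is printed, with the motif in capitals and the distance of its first base from the start.
Egr2, chr10:67537787-67537816, + strand, CArG box at -72: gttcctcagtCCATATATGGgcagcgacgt
Egr2, chr10:67537802-67537831, + strand, at -55: tatgggcagcgaCGTCAcgggtattgaaga
Egr4, chr6:85513681-85513710, - strand, at -109: tttggtcatttaCGTCAcggcgccagggcc
Fos, chr12:85473812-85473841, + strand, at -66: agttccgcccagTGACGtaggaagtccatc
Fosb, chr7:19310088-19310117, - strand, at -60: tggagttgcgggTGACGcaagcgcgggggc
Junb, chr8:84978837-84978866, - strand, at -106: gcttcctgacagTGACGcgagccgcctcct
Nr4a1, chr15:101266794-101266823, + strand, at -40: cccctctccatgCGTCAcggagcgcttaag
Npas4, chr19:4990133-4990162, - strand, at -179: tctcccgttcgaCGTCAcgggatgacgtcg
These matches are descriptions of the start regions and not sites shown to be bound in these samples.

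Per transcript length, *Egr1* and *Arc* were the most abundant of the 10 in each group and *Egr2* the least. In WT neocortex *Egr1* was at 268 ± 37.1 TPM (SD, n = 5), *Arc* at 145 ± 78.3 TPM, *Nr4a1* at 100.2 ± 42.9 TPM and *Egr3* at 83.4 ± 6.25 TPM. *Junb* (43.1 ± 19.3 TPM) and *Fos* (30.5 ± 15.7 TPM) followed. *Npas4*, *Egr4* and *Fosb* lay between 8.99 and 13.9 TPM, and *Egr2* was at 3.58 ± 1.49 TPM. Neighbours in this order overlapped between samples, except *Egr3* over *Junb* in WT neocortex and *Fosb* over *Egr2* in all 4 groups. In WT hippocampus *Arc* (90.0 ± 55.2 TPM) and *Egr1* (87.7 ± 28.5 TPM) led, and *Egr2* was at 1.1 ± 0.635 TPM. Its counts were 8 to 52 per sample there and 6 to 28 in null hippocampus, so that *Egr2* is the gene most limited by depth.

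**Figure D1:**
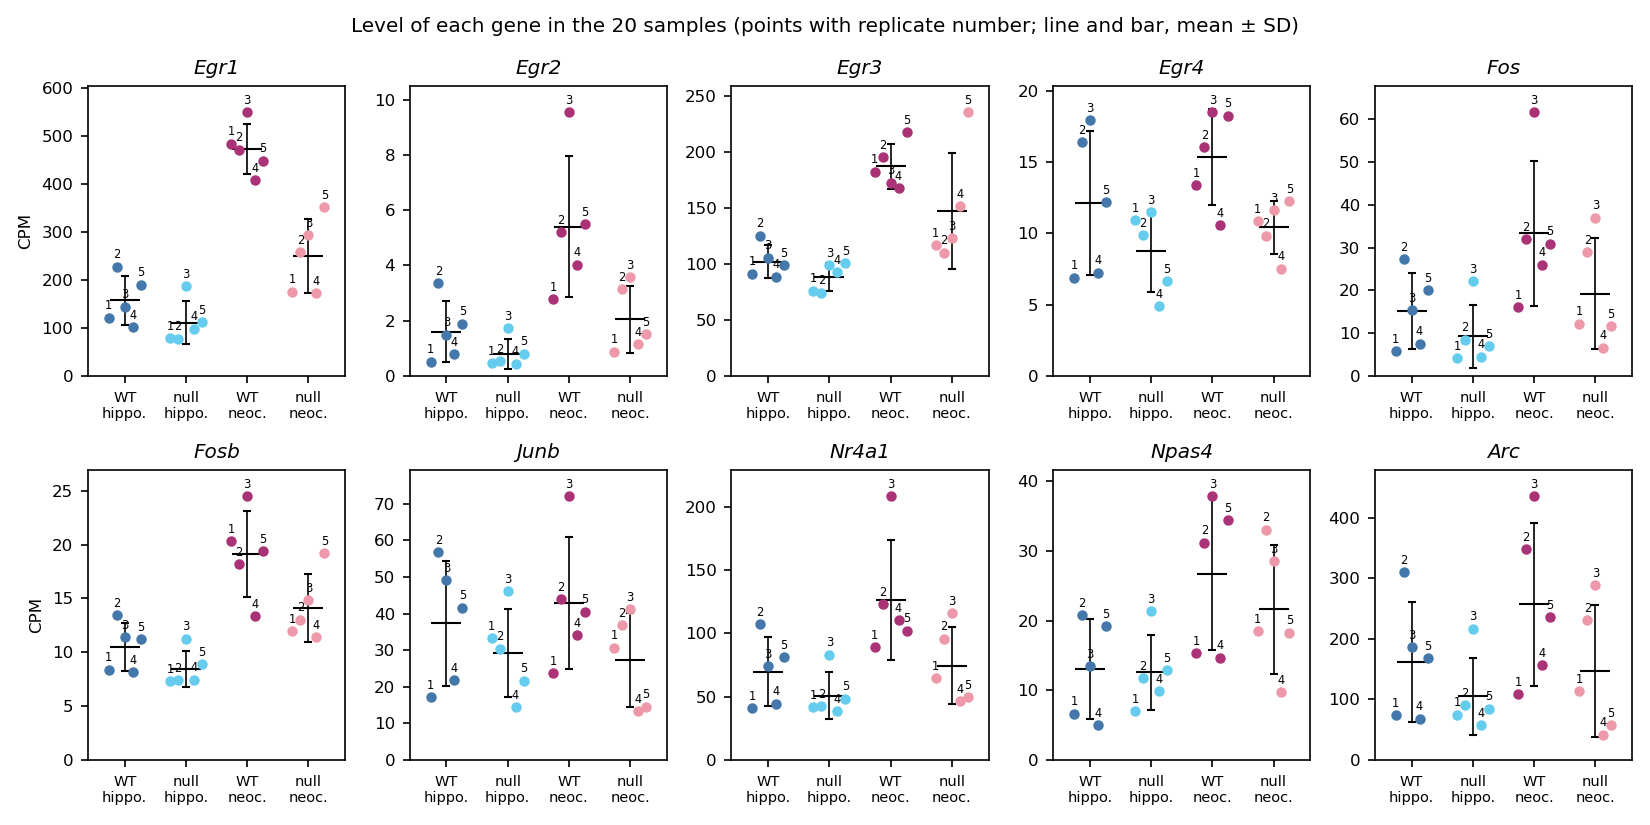
Level of the 10 genes in CPM (vertical axis, linear, from 0) in the 20 samples, by group (horizontal axis; hippo., hippocampus; neoc., neocortex). Points are samples with their replicate number, and the line and bar are mean ± SD (n = 5). *Egr1* lies between 409 and 549.8 CPM in WT neocortex, above all other samples, while *Fos*, *Arc* and *Junb* spread several-fold within each group.

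The 4 Egr genes code for zinc-finger transcription factors that bind the same GC-rich element. *Egr1* (ENSMUSG00000038418.7, chromosome 18) is the best studied and is needed for long-lasting synaptic plasticity. In WT neocortex it was at 485, 472, 549.8, 409 and 449 CPM in replicates 1 to 5. Null neocortex gave 176, 258, 294, 173 and 352 CPM. All 5 null samples were therefore below all 5 WT samples. *Egr1* was the 1 gene of the 10 without overlap between the genotypes in this tissue, where 1.29% of all genes tested were lower without overlap. Its low level here was in view when the set was chosen, so nothing is read from this lack of overlap. The means were 473 ± 51.8 CPM in WT and 251 ± 77.4 CPM in null samples, a log2 fold change of -0.91 (SE 0.17).

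In hippocampus *Egr1* was lower, at 122, 228, 145, 102 and 191 CPM in WT samples. Null hippocampus held 79.6, 78.1, 188, 99.1 and 112 CPM. The genotypes overlapped, with null replicate 3 above 3 of the WT samples. The log2 fold change of -0.50 (SE 0.26) did not pass the test (adjusted p = 0.494, edgeR). Nearly all *Egr1* counts, 98.2%, were assigned to the transcript Egr1-202, and on the TPM scale a minor transcript took 1.27% ± 0.35 in WT and 1.26% ± 0.58 in null hippocampus (SD, n = 5).

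*Egr2* (chr10:67535475-67542188), known for its role in myelinating cells as well as in neurons, was at 2.79, 5.21, 9.54, 4.02 and 5.49 CPM in WT neocortex. The null neocortex samples were at 0.879, 3.13, 3.57, 1.15 and 1.52 CPM. Null replicates 2 and 3 reached into the WT range and the other null samples lay below it, with a log2 fold change of -1.38 (SE 0.39). WT hippocampus held 0.521, 3.36, 1.49, 0.787 and 1.89 CPM and null hippocampus 0.468, 0.536, 1.72, 0.447 and 0.809 CPM. Replicate 3 of the null hippocampus was above 3 of the 5 WT values, and the difference of -0.98 (SE 0.51) did not pass (adjusted p = 0.497, edgeR).

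*Egr3* (chr14:70077203-70082614), which takes part in memory formation and in muscle spindle development, varied less than most of the set. It was at 183, 196, 173, 168 and 218 CPM in WT neocortex and at 117, 110.4, 123, 152 and 236 CPM in null neocortex. Null replicate 5 had the highest *Egr3* of all 20 samples, whereas the 4 other null samples were below every WT sample. The log2 fold change was -0.34 (SE 0.17), and -0.57 without null replicate 5. In hippocampus the values were 91.6, 125, 106, 88.8 and 99.4 CPM for WT and 76.4, 74.4, 98.9, 92.6 and 101 CPM for null, which overlapped. There the difference of -0.20 (SE 0.11) did not pass (adjusted p = 0.511, edgeR). More than 50% of the *Egr3* counts (54.7%) were assigned to Egr3-202, annotated as a retained intron, which shares most of its sequence with the coding Egr3-204. Counts of these transcripts cannot be cleanly separated.

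*Egr4* (chr6:85511121-85513589), the least abundant of the family after *Egr2*, overlapped between genotypes in both tissues. It ranged from 6.9 to 17.9 CPM in WT and from 4.92 to 11.5 CPM in null hippocampus, with a difference of -0.47 (SE 0.30, adjusted p = 0.589, edgeR). Neocortex samples ranged from 10.6 to 18.5 CPM in WT and from 7.53 to 12.3 CPM in null mice, with a log2 fold change of -0.55 (SE 0.16).

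*Fos*, *Fosb* and *Junb* code for subunits of the AP-1 transcription factor. *Fos* (chr12:85473890-85477273), the classical marker of recently active neurons, was at 5.73, 27.3, 15.4, 7.56 and 20.1 CPM in WT hippocampus. Null hippocampus held 4.14, 8.49, 22.2, 4.55 and 6.94 CPM. Null replicate 3 stood apart from the other null samples and above 4 of the 5 WT samples. The difference of -0.70 (SE 0.49) did not pass (adjusted p = 0.634, edgeR), and it ranged from -1.33 to -0.38 when single samples were left out. In neocortex *Fos* was at 16.1, 31.9, 61.6, 26.0 and 30.9 CPM in WT and at 12.2, 28.9, 37.0, 6.6 and 11.7 CPM in null samples. These overlapped as well, with a log2 fold change of -0.78 (SE 0.43).

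*Fosb* (chr7:19302696-19310051), whose truncated product ΔFosB builds up after repeated stimulation, spread by no more than 1.83-fold within any group. Its levels were 8.4, 13.4, 11.4, 8.18 and 11.2 CPM in WT hippocampus and 7.34, 7.42, 11.3, 7.45 and 8.9 CPM in null hippocampus. Only null replicate 3 was above the median of WT, and the difference of -0.31 (SE 0.16) did not pass (adjusted p = 0.503, edgeR). WT neocortex held 20.3, 18.2, 24.5, 13.3 and 19.4 CPM and null neocortex 11.9, 13.0, 14.9, 11.4 and 19.2 CPM, with a log2 fold change of -0.44 (SE 0.16). Fosb-206 and Fosb-207, which lack the stretch removed in ΔFosB, took 10.6% ± 15.8 of the gene's TPM in WT and 5.09% ± 7.36 in null hippocampus, and 4.99% ± 5.47 in WT and 16.0% ± 12 in null neocortex (SD, n = 5). At 0 in several samples of each tissue, these shares were too uneven to be compared at this depth.

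*Junb* (chr8:84974484-84978718), which forms AP-1 dimers with Fos proteins, spread 3.02-fold to 3.32-fold within groups. It ranged from 17.1 to 56.8 CPM in WT and from 14.4 to 46.1 CPM in null hippocampus (difference -0.35, SE 0.34, adjusted p = 0.751, edgeR). In neocortex it ranged from 23.8 to 72.0 CPM in WT and from 13.3 to 41.2 CPM in null samples (difference -0.65, SE 0.33).

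*Nr4a1* (chr15:101254269-101274795) codes for an orphan nuclear receptor. WT hippocampus held 41.1, 107, 74.3, 44.6 and 81.3 CPM and null hippocampus 41.8, 42.7, 83.2, 38.5 and 48.6 CPM. The groups overlapped, with null replicate 3 the only null sample among the higher WT values. The difference of -0.45 (SE 0.27) did not pass (adjusted p = 0.567, edgeR). In neocortex *Nr4a1* was at 89.2, 123, 208, 110.4 and 102 CPM in WT and at 64.8, 96.0, 116, 46.3 and 49.8 CPM in null samples, a log2 fold change of -0.76 (SE 0.27). Nr4a1-202, which starts upstream of the main start, took 12.5% ± 9.61 of the gene's TPM in WT and 19.3% ± 12 in null hippocampus (SD, n = 5; exact permutation test, two-sided p = 0.389, adjusted p = 0.96 over 7 transcript shares compared). None of these 7 shares passed, and the smallest p that 5 samples against 5 allow is 0.00794.

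*Npas4* (chr19:4984355-4990316), a neuron-specific bHLH-PAS factor that answers to calcium entry, was the gene least different between genotypes. It was at 6.64, 20.8, 13.5, 4.96 and 19.2 CPM in WT hippocampus and at 7.02, 11.7, 21.4, 9.84 and 12.9 CPM in null hippocampus. The means were 13.0 ± 7.16 and 12.6 ± 5.39 CPM, and the difference of -0.05 (SE 0.38, adjusted p = 0.981, edgeR) turned positive, to 0.03 to 0.19, under 7 of the alternatives tried. Neocortex samples ranged from 14.7 to 37.8 CPM in WT and from 9.73 to 33.0 CPM in null mice (difference -0.29, SE 0.32).

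*Arc* (chr15:74669083-74672570), whose protein drives removal of AMPA receptors from synapses, had the widest spread of the set within both neocortex groups and is the gene with miR-324-5p seed matches printed above. WT hippocampus held 74.3, 309.8, 187, 68.4 and 168 CPM and null hippocampus 74.9, 90.5, 217, 57.9 and 84.5 CPM. Again null replicate 3 was the 1 null sample among the higher WT values, and the difference of -0.62 (SE 0.43) did not pass (adjusted p = 0.631, edgeR). WT neocortex held 108, 348, 435, 156 and 236 CPM and null neocortex 113, 231, 289, 42.1 and 57.9 CPM. Null replicates 4 and 5 had the lowest *Arc* of the 10 neocortex samples, below every WT sample, and the log2 fold change was -0.80 (SE 0.50). The annotated *Arc* transcripts, 3055 and 3054 bases long, share nearly all of their sequence and were read as 1 gene.

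Across the set, the hippocampus comparison called 0 of the 10 genes with edgeR, with 0 at an unadjusted p of at most 0.05, and DESeq2 also called 0. Of all 14796 genes tested there, 0.115% were called and 11.1% had an unadjusted p of at most 0.05. The genotypes overlapped for all 10 genes, while for 2.55% of all genes they did not. All 10 log2 fold changes were below 0, with a median of -0.46 and a range of -0.98 to -0.05, beside a median of 0.00 over all genes, of which 49.7% were below 0. The 10 genes rise and fall together from sample to sample, as described below, so this shared sign is not 10 separate observations. Leaving out single samples gave 0 calls in all 10 fits.

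In the neocortex, which served to choose the set, 1 of the 10 genes (*Egr1*) was past the threshold, as were 0.315% of 14930 genes tested. The choice of the set fixed this count, and it supports nothing. The 10 log2 fold changes ranged from -1.38 to -0.29 with a median of -0.70, beside 0.00 over all genes, and 48.1% of all genes were below 0. With single samples left out the log2 fold change of *Egr1* stayed between -1.06 and -0.80, but its call was lost in 9 of these 10 fits. It was also lost under 9 of the other alternatives. *Egr1* was picked on these values, so this range supports nothing either.

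The null neocortex samples also differed from WT in regional markers. The summed neocortical markers were 745, 756, 686, 759 and 700.2 CPM in WT and 555, 518, 601, 609 and 833 CPM in null samples. Markers of the hippocampal fields summed to 79.6 to 86.1 CPM in WT and to 136, 156, 112, 137 and 73.6 CPM in null neocortex. Null replicate 5, the null sample with the highest *Egr1*, was the only null sample that did not lie below the WT range of neocortical markers and above that of the hippocampal ones. Striatal markers, such as *Drd1* and *Drd2*, summed to 155, 435, 225, 163 and 162 CPM in WT and to 417, 289, 724, 493 and 261 CPM in null neocortex. None of the markers of these 3 lists was at 0 in all samples of a group. Neuron markers summed to 4977, 5670, 5132, 5328 and 5122 CPM in WT and to 4378, 4588, 4836, 4389 and 5221 CPM in null neocortex. Here too null replicate 5 was the only null sample not below the WT range. Not every marker moved with its sum. Of the 4 neuron markers 3 had a log2 fold change below 0, and of the 7 neocortical markers 6 did. With the log2 sum of the neocortical markers as a covariate the difference of *Egr1* was -0.74, and with that of the striatal markers -0.85. With the neocortical markers as covariate *Arc* was at -1.61 in place of -0.80, *Junb* at -1.26 in place of -0.65 and *Egr3* at -0.03 in place of -0.34. These covariates were added after the data were seen, and the part of regional composition in the result was not tested beyond them.

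**Figure D2:**
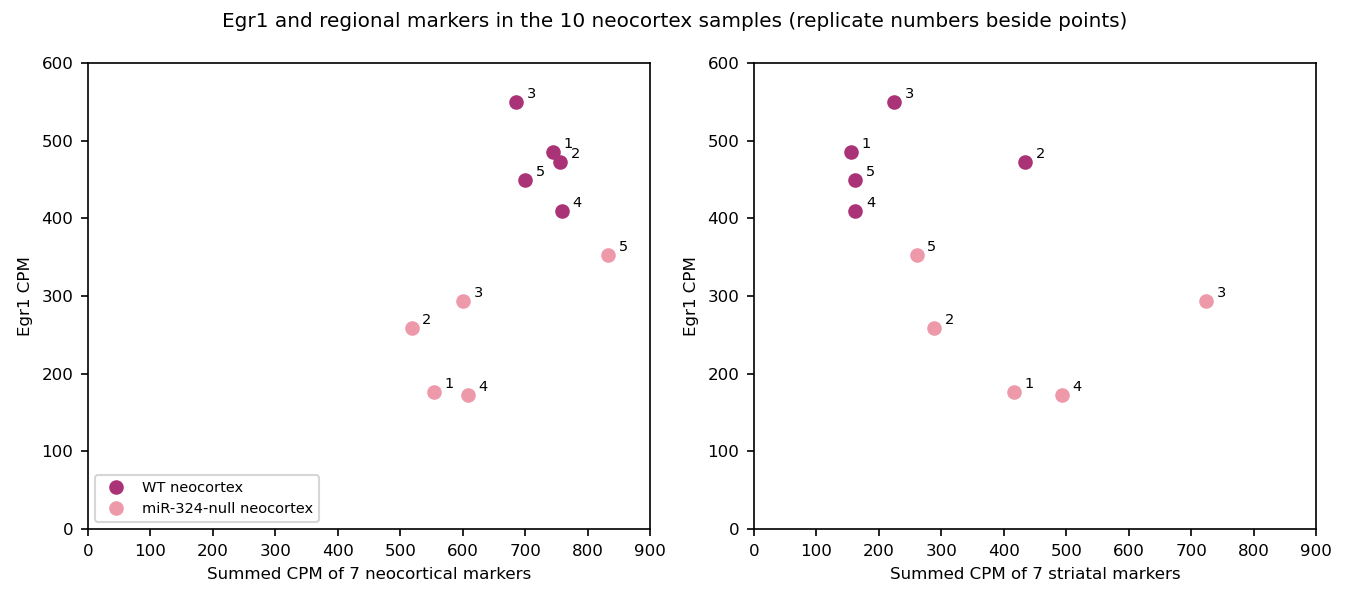
*Egr1* (vertical axis, CPM) against the summed level of 7 neocortical (left) and 7 striatal markers (right; horizontal axes, CPM) in the 10 neocortex samples, with replicate numbers. Among null samples, replicate 5 has the highest *Egr1* (352 CPM) and the highest neocortical marker sum (833 CPM), and no null sample reaches the lowest WT *Egr1* of 409 CPM.

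The genotype difference in neocortex was numerically more negative than that in hippocampus for all 10 genes, by 0.09 to 0.42 on the log2 scale. Standard errors of these differences were 0.23 to 0.73. The neocortex side of this contrast was in view when the set was chosen, so it is given without a test.

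Between tissues, most of the set was lower in hippocampus than in neocortex. The WT samples answer what the tissue difference is without the deletion, and the WT neocortex samples are shared with the contrast that chose the set. Of the 9 genes other than *Egr1*, 6 were called in WT mice, all lower in hippocampus, where 18% of the 14894 genes tested were called lower and 36.1% in either direction. The median log2 fold change of these 9 was -0.86, beside 0.00 over all genes. Several of the called genes rise and fall together from sample to sample, as described below. The 6 calls are therefore not 6 separate observations. *Egr1* was at 473 ± 51.8 CPM in neocortex and 158 ± 51.3 CPM in hippocampus (log2 fold change -1.58, SE 0.18), given without a p-value, since it was picked on the same WT neocortex samples. Summed neuron markers were lower in WT hippocampus too, at 3838 to 4065 CPM against 4977 to 5670 CPM in WT neocortex. Of these 4 markers 3 were called lower. The part of cell composition in the tissue difference was not tested.

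Of the other genes of the set, *Egr3* fell from 187 ± 20.2 CPM in WT neocortex to 102 ± 14.6 CPM in WT hippocampus (-0.87, SE 0.09, adjusted p = 9.04e-06, edgeR). *Egr2* fell by 1.73 on the log2 scale (SE 0.42, adjusted p = 0.00564, edgeR). *Fosb* fell by 0.86 (SE 0.16, adjusted p = 0.001, edgeR), *Nr4a1* by 0.86 (SE 0.27, adjusted p = 0.0244), *Fos* by 1.13 (SE 0.40, adjusted p = 0.0416) and *Npas4* by 1.03 (SE 0.37, adjusted p = 0.0446). These last 3 lost their call when WT hippocampus 1, WT hippocampus 4 or WT neocortex 3 was left out, which left *Egr2*, *Egr3* and *Fosb* called each time. Some of them also lost it with other samples left out. Counting each gene in each such fit, *Egr1* included, 16 of 100 results lost a call, all for *Nr4a1*, *Fos* or *Npas4*. *Arc* (-0.67, SE 0.43, adjusted p = 0.255), *Egr4* (-0.33, SE 0.25, adjusted p = 0.341) and *Junb* (-0.20, SE 0.33, adjusted p = 0.686) did not pass. Without the samples high in choroid plexus markers *Fos* and *Npas4* lost their call. Counted in the same way over the alternatives other than single samples left out, 12 of 119 results lost a call, all for *Fos* or *Npas4*. In these alternatives 1 result, for *Arc*, gained a call. The calls of *Fos* and *Npas4* thus depended on the setting. *Egr1* and *Egr3* were the 2 genes without overlap between the tissues, and 13.3% of all genes did not overlap and were lower in hippocampus.

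In null mice 2 of the 9 genes other than *Egr1* were called lower in hippocampus, where 13.6% of 15033 genes were called lower and 27.4% in either direction. *Egr3* and *Fosb* did not overlap between the tissues, as 11% of all genes did not and were lower in hippocampus. *Egr3* fell by 0.73 (SE 0.19, adjusted p = 0.0124, edgeR) and *Fosb* by 0.72 (SE 0.16, adjusted p = 0.00574). *Egr1* changed by -1.16 (SE 0.26), again given without a p-value. *Egr2* (-1.32, SE 0.47, adjusted p = 0.0539), *Npas4* (-0.76, SE 0.32, adjusted p = 0.102), *Fos* (-1.03, SE 0.52, adjusted p = 0.164), *Nr4a1* (-0.54, SE 0.27, adjusted p = 0.169), *Arc* (-0.47, SE 0.50, adjusted p = 0.53) and *Egr4* (-0.24, SE 0.21, adjusted p = 0.451) did not pass. *Junb* had the opposite sign (0.11, SE 0.35, adjusted p = 0.847). Without null hippocampus 3, the sample highest in the group for most of the set, *Egr2*, *Fos*, *Nr4a1* and *Npas4* were called as well, and without null neocortex 4, *Egr2* and *Npas4* were. With same-numbered samples as blocks *Egr2*, *Fos*, *Nr4a1* and *Npas4* were called too, but the labels do not say that these samples are paired. A call in WT and not in null mice is not a test of a difference between the genotypes.

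**Figure D3:**
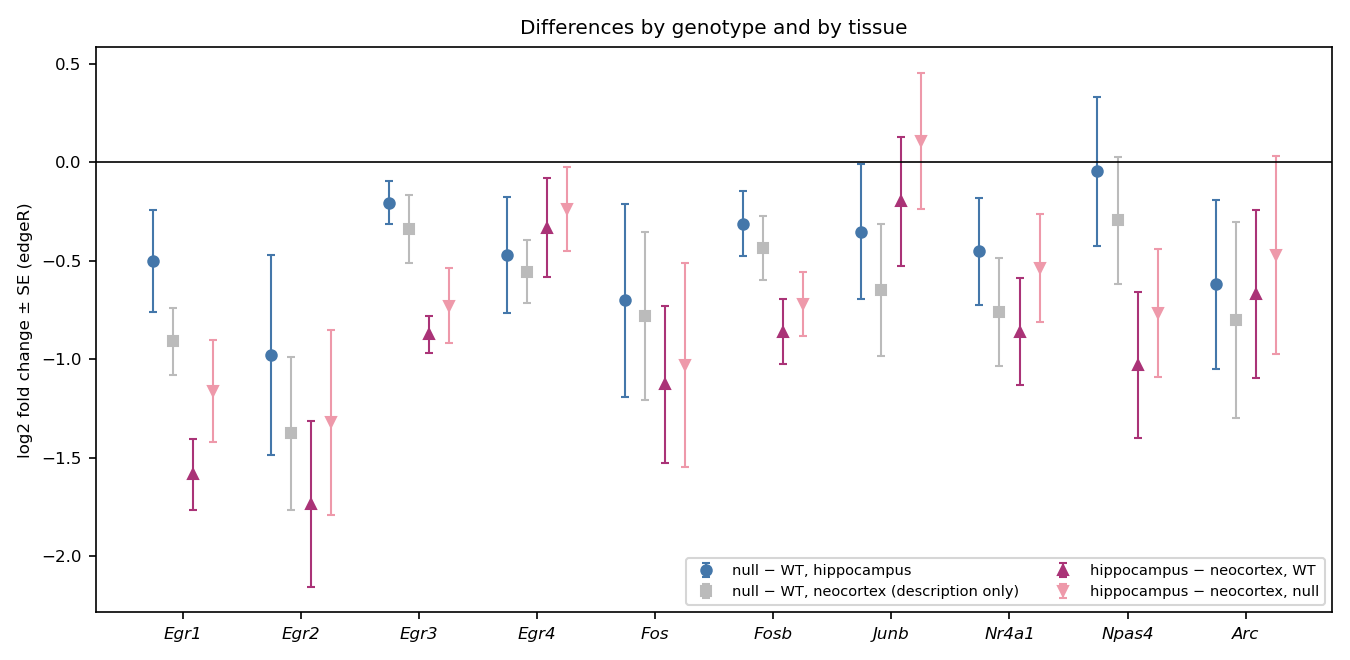
Log2 fold change ± SE (vertical axis) of each gene in 4 comparisons, from edgeR fits with 5 samples per group. Values below 0 mean lower in null mice (circles and squares) or lower in hippocampus (triangles). All but 1 of the 40 values, *Junb* between tissues in null mice, lie below 0, and the squares are a description because the neocortex chose the set.

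The spread within groups was large for most of the set, and samples high in 1 gene tended to be high in others. The highest sample of a group exceeded the lowest by 3.74-fold to 6.87-fold for *Arc* and by 3.82-fold to 5.6-fold for *Fos*, but by 1.30-fold to 2.14-fold for *Egr3* and 1.54-fold to 1.83-fold for *Fosb*. Deviations were taken as log2 CPM minus the mean of the sample's own group. Averaged over the 10 genes, they were highest in null hippocampus 3 (0.82), WT hippocampus 2 (0.76), WT neocortex 3 (0.59) and null neocortex 3 (0.59). They were lowest in WT hippocampus 1 (-0.71), null neocortex 4 (-0.68) and WT hippocampus 4 (-0.65). These deviations are relative to each group's own mean, so samples above and below it in every group follow from the centring.

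**Figure D4:**
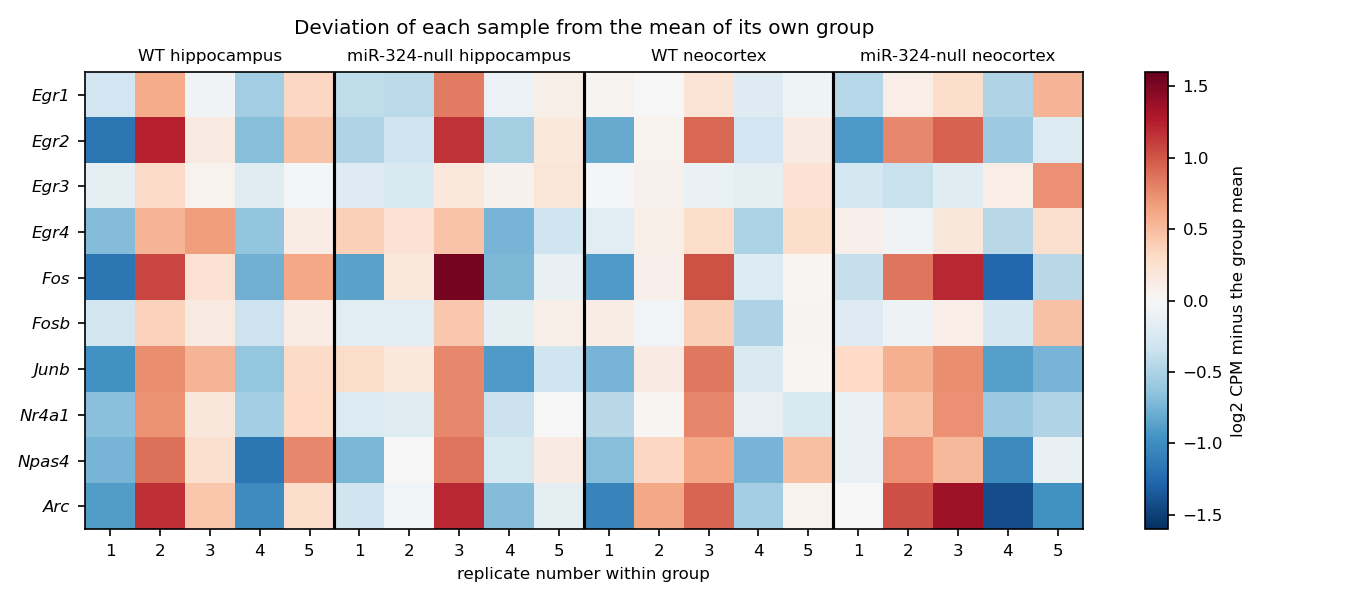
Deviation of each sample (columns, replicate number within group) from the mean of its group for the 10 genes (rows), in log2 CPM (colour). Columns tend to be of 1 colour, as in null hippocampus 3 and WT hippocampus 1, except for *Egr3*, which in null neocortex 5 is high (0.73) where *Arc* is low (-0.96).

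Within groups, *Fos*, *Arc*, *Nr4a1*, *Egr2*, *Npas4* and *Junb* moved most closely together. Pearson's r between their deviations over the 20 samples was 0.77 to 0.95 in the 15 pairs of these 6 genes, with a median of 0.90. *Fos* and *Nr4a1* (0.95), *Nr4a1* and *Arc* (0.95) and *Fos* and *Arc* (0.94) were the closest pairs. *Egr1* was closest to *Fosb* (0.87) and *Egr2* (0.77) and less close to *Junb* (0.43). *Egr3* stood apart, with r of -0.23 with *Junb*, 0.01 with *Fos*, 0.55 with *Egr1* and 0.61 with *Fosb*. The 6 genes were grouped after these values were seen, the points share library and scaling, and the coefficients are descriptions.

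**Figure D5:**
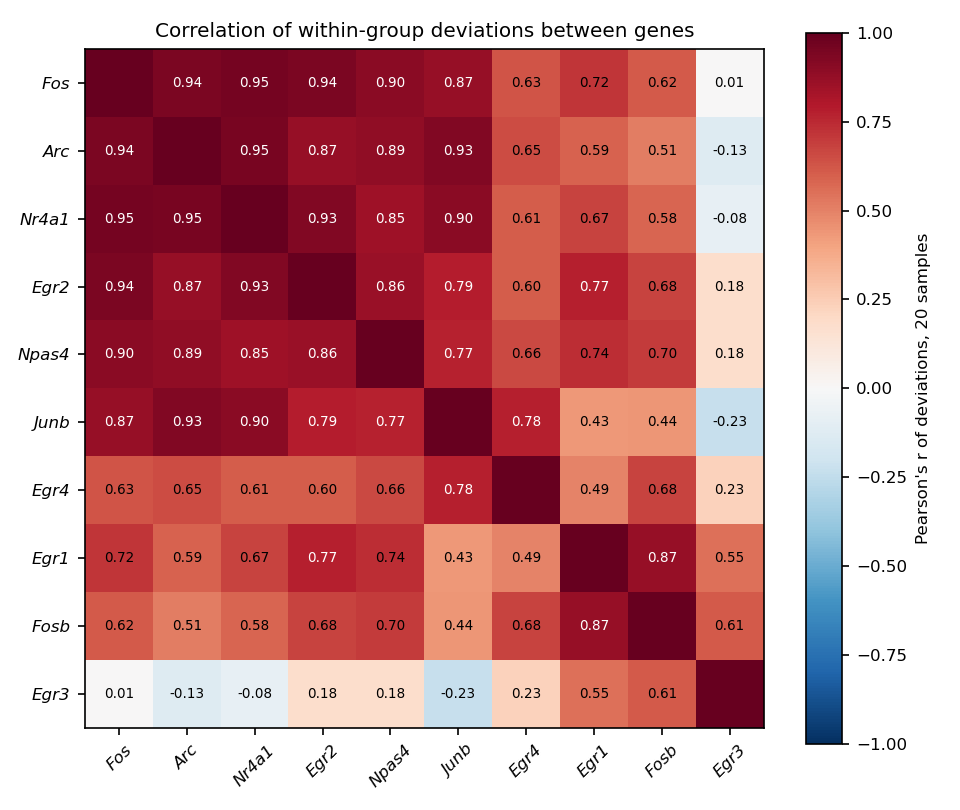
Pearson's r between the within-group deviations of each pair of genes over 20 samples (colour and number). The first 6 genes form a block of 0.77 to 0.95, *Egr1* and *Fosb* pair at 0.87, and the *Egr3* row runs from -0.23 to 0.61.

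The genes outside the set most like it were sought by their r with the mean deviation of the 10 genes over 20 samples. They were *Sik1* (0.90), *Dusp6* (0.90), *Dusp1* (0.90), *Arl4d* (0.90), *Ier2* (0.87), *Tob2* (0.86), *Btg2* (0.85), *Sertad1* (0.84), *Csrnp1* (0.82) and *Klf10* (0.80). Over the 14564 genes compared the median r was 0.00 and 12 genes reached 0.8. In hippocampus alone 5 of these 10 genes were among the closest 10, and in neocortex alone 4 were. Both are parts of the 20 samples that picked the genes, so this is not a separate test. Between genotypes in hippocampus their log2 fold changes ran from -0.33 for *Arl4d* to 0.13 for *Csrnp1*, with the lowest adjusted p at 0.58 (*Arl4d*, edgeR).

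The wider pathway was read from 4 lists. Of 23 other rapid immediate early genes, 0 were called by edgeR between genotypes in hippocampus and 1 had an unadjusted p of at most 0.05, with a median log2 fold change of -0.07, and DESeq2 called 0 as well. Between WT tissues 6 were called lower and 4 higher in hippocampus, beside 36.1% of all genes called in either direction. *Homer1*, whose short form loosens synaptic scaffolds, was at 94.7 ± 4.64 CPM in hippocampus and 239 ± 31.2 CPM in neocortex (-1.33, SE 0.08, adjusted p = 5.16e-08, edgeR), and *Ier5* was lower too (-1.26, SE 0.08). The *Homer1* level is the sum of all its transcripts, and its short form was not measured apart. *Jun*, the partner of Fos in AP-1, was higher in hippocampus, at 73.3 ± 14.9 against 24.4 ± 2.01 CPM (1.59, SE 0.12, adjusted p = 4.53e-07, edgeR), and so was *Nr4a3*, a relative of *Nr4a1* (1.32, SE 0.14). Within the Nr4a family, *Nr4a1* was thus lower and *Nr4a3* higher in hippocampus.

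Of 16 delayed activity-regulated genes, which follow the immediate early response, 10 were called lower and 3 higher in WT hippocampus, again beside 36.1% of all genes. Among the lower were *Rgs4* (-1.70, SE 0.05), *Cdkn1a* (-1.47, SE 0.10), the synaptic pentraxin *Nptx2* (-1.44, SE 0.09) and the prohormone convertase *Pcsk1* (-1.33, SE 0.10). Of 21 upstream factors and kinases 3 were lower and 7 higher, which as a share lies near the 36.1% of all genes. *Mef2c*, which codes for an activity-dependent factor at such promoters, was at 161 ± 38.4 CPM in hippocampus and 633 ± 58.4 CPM in neocortex (-1.97, SE 0.14, adjusted p = 1.57e-07, edgeR). *Camk4* (-0.87, SE 0.08) and *Rps6ka3* (-0.82, SE 0.06), which code for kinases that phosphorylate CREB, were lower and *Mrtfa*, which codes for a cofactor of SRF, was higher (0.55, SE 0.06). Of 9 feedback and partner genes 3 were lower and 2 higher, beside the same 36.1%. *Arnt2*, the dimer partner of Npas4, was lower (-0.59, SE 0.07), as was *Dusp6* (-0.38, SE 0.11), and the MAP kinase phosphatases *Dusp4* (1.15, SE 0.13) and *Dusp5* (0.51, SE 0.16) were higher.

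Between genotypes in hippocampus edgeR called 0 genes of each of these 3 lists, with medians of 0.03 for the delayed genes, -0.10 for the upstream genes and -0.12 for the feedback and partner genes. At an unadjusted p of at most 0.05 edgeR found 1 delayed, 6 upstream and 1 feedback or partner gene, where 11.1% of all genes reached it. DESeq2 called 1 of the delayed, 2 of the upstream and 0 of the feedback and partner genes. Over all genes it called 139 in this comparison, where edgeR called 17. In neocortex, given as description, the medians were -0.23 for the other rapid genes, -0.09 for the delayed, -0.03 for the upstream and -0.23 for the feedback and partner genes, where the 10 genes of the set had -0.70. Of 22 other rapid genes tested there, 2 were past the threshold, *Nr4a3* (-0.84, SE 0.14) and *Ier5* (-0.55, SE 0.09), beside 0.315% of all genes. Both were lower in null mice. Of the 22 genes 16 were below 0, and *Jun* was among those above it (0.41, SE 0.12). The lists were chosen with these data known, so nothing is read from these calls.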

How the data were processed

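RNA was extracted with the mirVana kit and stranded mRNA libraries were sequenced on a NextSeq 500. The authors quantified each sample with kallisto, against the mouse GRCm38 release 92 transcriptome per the study's methods (the submitters' processing notes list GRCh38, kallisto and DESeq2), and deposited an estimated count and a TPM value (already scaled for transcript length and depth) for each of 115270 transcripts. Whether strand was used in counting is not given in the sources used here.

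Here 113580 transcripts were matched to gene symbols and loci in GENCODE M21 (GRCm38), and the 1690 others held at most 0.556% of a sample's counts. Estimated counts were summed per gene, rounded to whole numbers, filtered with filterByExpr, scaled by TMM and tested with edgeR 4.0.16 (R 4.3.3; glmQLFit and glmQLFTest), with 5 samples per group in each fit. TPM values were summed per gene. Deviations and correlations used log2 CPM with a prior count of 2, and single values were compared with exact permutation tests (Python 3.11.15, numpy 2.4.6, pandas 2.3.3, scipy 1.17.1). Before use the script was run on simulated data, in which the log2 level of 200 genes was shifted by 1. Between genotypes edgeR found 85% of them in hippocampus (14679 genes tested) and 83.5% in neocortex (14799). Between tissues it found 86% in WT (14770) and 78.5% in null samples (14914). False calls made up 4.49% of calls between genotypes in hippocampus and 8.24% in neocortex. Between tissues they made up 2.27% in WT and 4.27% in null samples. In hippocampus the 10 genes differed between genotypes by -0.98 to -0.05, less than the simulated shift. The shares found therefore do not measure power for these 10 genes. No 2 samples of a group agreed within sampling noise.

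Alternatives were DESeq2 1.42.0, its size factors, transcript length offsets, other filters on low counts, protein_coding transcripts, all 20 samples in 1 fit, a replicate block, limma 3.58.1 on log2(TPM + 1) and log2(TPM + 0.1), and leaving out each sample in turn. Leaving out the 3 samples high in choroid plexus markers and the use of marker sums as covariates were added after the data were seen. The 10 genes and all lists were chosen with earlier results of these data known. Named beside the 10 genes were at most 4 genes of each pathway list, those called and with the largest change between WT tissues, and the 10 genes closest to the set by correlation. Counting intervals are not given, since counts are estimated and spread between samples exceeded sampling noise. The 1 gene on chromosome 18 is given without sequence or coordinates.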

Additional observations from a re-analysis of the deposited data

Results flagged for a closer look

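In 5 of the 40 sets of 5 values (10 genes in 4 groups) the highest sample lay far from the other 4, with a gap of more than 0.71 of the whole range (Dixon's critical value at 95%). Chance alone flags about 1 in 20 such groups, and the genes move together, so these are not 5 separate events. In null hippocampus, replicate 3 was the high sample each time, with 1.72 CPM of *Egr2*, 22.2 CPM of *Fos*, 83.2 CPM of *Nr4a1* and 217 CPM of *Arc*. In WT neocortex, replicate 3 was high in *Nr4a1*, at 208 CPM. Without null hippocampus 3 the genotype difference of *Fos* in hippocampus was -1.33 in place of -0.70, and 0 of the 10 genes were called by edgeR in either case.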

How the results depend on the processing

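In hippocampus, none of the 10 genes was called between genotypes under any alternative or with any sample left out. *Npas4* changed sign there, to 0.030 with a replicate block, 0.039 with limma on log2(TPM + 1) and 0.063 on log2(TPM + 0.1), and ran from -0.33 to 0.19 with single samples left out. Counts over all genes moved from 17 to 4 with the replicate block and to 139 with DESeq2.

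In neocortex the calls follow from the choice of the set and support nothing. In place of 1 (*Egr1*), 0 genes of the set were called with at least 10 counts in every sample, edgeR with length offset, protein_coding transcripts only, all 20 samples in 1 fit, limma with either pseudocount, the 3 samples high in choroid plexus markers left out, or striatal or neocortical markers as a covariate. DESeq2 with and without length offset and the replicate block called 2 (*Egr1* and *Egr2*), and leaving out single samples gave 0 to 3, with 3 (*Egr1*, *Egr3* and *Fosb*) without null replicate 5 and 0 without any of the other 9 samples. Over all genes 47 calls became 12 with the striatal covariate and 240 with DESeq2, and 27 to 566 with single samples left out.

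Between WT tissues the 7 calls, *Egr1* included, became 4 to 7 with single samples left out and 5 to 8 otherwise, and *Junb* ran from -0.40 to 0.0825. In null mice the 3 calls, *Egr1* included, became 3 to 7 with single samples left out and 7 with the replicate block (*Egr1*, *Egr2*, *Egr3*, *Fos*, *Fosb*, *Nr4a1* and *Npas4*), and *Junb* ran from -0.12 to 0.31. Same-numbered samples of both tissues correlated by -0.10 to 0.11 in WT and -0.01 to 0.19 in null mice over all genes, with 1 and 3 of 5 pairs over 0.1, so the numbers were not taken to pair the samples. In WT mice 2 of 5 hippocampus and 3 of 5 neocortex samples correlated best with their own number, and in null mice 3 and 4 of 5 did. Between WT and null samples of 1 tissue, which are different mice, 1 and 0 of 5 did in hippocampus and 1 and 2 in neocortex. Whether the numbers mark mice was not settled.

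The difference between the tissues' genotype effects changed sign for *Egr3*, to 0.08, with protein_coding transcripts only. With single samples left out it ran from -0.87 to 0.11 for *Egr2*, -0.27 to 0.0623 for *Egr4*, -0.46 to 0.55 for *Fos*, -0.49 to 0.028 for *Npas4* and -0.58 to 0.26 for *Arc*, and calls over all genes from 1 to 20 beside 3, with 0 under the block and 11 under DESeq2. Of the 10 genes most like the set, 5 were among the closest 10 in hippocampus samples and 4 in neocortex samples. Both are parts of the samples that picked these genes. The cause of the changes under these alternatives was not tested. Depth limits mainly *Egr2*, which had as few as 6 counts in a sample.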

Other observations

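Hippocampus and neocortex samples that carry the same genotype and replicate number tended to deviate from their group means in the same direction for several of the genes, although the labels do not tie the numbers to mice. Over the 10 such pairs, Pearson's r of the deviations was 0.85 for *Junb* (permutation p = 0.00103, adjusted p = 0.0103 over the 10 genes; Spearman's rho 0.81, permutation p = 0.00759) and 0.78 for *Arc* (permutation p = 0.00521, adjusted p = 0.026; rho 0.81, permutation p = 0.00308). Without the 2 pairs farthest from the median, r was 0.72 for *Junb* and 0.71 for *Arc*. Within genotypes r was 0.82 in WT and 0.92 in null pairs for *Junb*, and 0.87 and 0.78 for *Arc*. *Fos* passed on rho alone (0.77, permutation p = 0.0107, adjusted p = 0.0356, the same adjusted p as *Junb*). The 8 other genes did not pass after adjustment of r, with values from 0.40 for *Egr1* (permutation p = 0.329; rho 0.42) to 0.74 for *Egr4* and *Fos*. Over all 14588 genes, same-numbered samples correlated by no more than 0.19.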
